A study of Homo sapiens with 4 samples.

Results

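Among the peaks of the IGF2BP2 iRIP-sequence libraries of Jurkat cells are intergenic peaks that face a second peak on the opposite strand. The members were chosen by 2 measured properties of the peaks. A peak was counted when the largest share of its length was intergenic in the authors' annotation and when it overlapped, by at least 1 bp, a peak on the other strand of the same list. There were 1544 such peaks among 145715 peaks in replicate 1 and 3169 among 137934 in replicate 2. They are called two-strand peaks below, and the remaining intergenic peaks one-strand peaks.

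Jurkat is an established human line of T-cell acute lymphoblastic leukemia. For iRIP-seq, UV light linked proteins to RNA in the cells, an antibody pulled down IGF2BP2, and the RNA that came with it was sequenced. Libraries were made from 2 IGF2BP2 precipitates and 2 inputs of the same line, with no treatment named in the labels, and only the peak lists of the iRIP libraries were analysed here. It is a single cell line, and nothing in the labels says whether the replicates came from separate cultures. Of 8 T lymphoblast genes, 8 had a peak in replicate 1 and 7 in replicate 2, against 1 and 2 of 3 B cell genes, 0 and 1 of 3 myeloid genes and 0 and 1 of 3 erythroid genes.

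IGF2BP2 is a cytoplasmic protein that binds RNA through its KH domains, reads m6A and is best known for the stability it gives to mRNA. A mature mRNA is copied from a single strand of its gene, so that its peaks carry that strand. Sequence far from genes has other features, among them tandem satellite arrays around centromeres and remnants of duplicated genes, and RNA from both strands of satellite arrays has been described. No repeat or centromere annotation and no genome sequence were used here, so positions are described by the RefSeq genes around them (GRCh38.p14, the build named in the submitters' processing notes being GRCh38), and no peak sequence is shown.

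A peak on the opposite strand was more frequent in intergenic sequence than in any other region. Two-strand peaks made up 3.64% of the 42444 intergenic peaks in replicate 1 (95% Wilson interval 3.46% to 3.82%) and 8.45% of the 37499 in replicate 2 (8.17% to 8.74%), with a mean of 6.04% ± 3.40 (SD, n = 2). Over all peaks of either list the shares were 1.68% and 2.89%. An opposite-strand peak was present for 0.690% and 0.430% of the CDS peaks, 0.621% and 0.618% of the intron peaks and 1.41% and 1.62% of the antisense peaks in replicates 1 and 2. The 3′ UTR was close to CDS, at 0.591% and 0.421%, and the 5′ UTR had 1.65% (1.18% to 2.29%) and 0.737%. These shares are what the definition itself counts and are given without a test. All intervals reflect counting error alone and treat each peak as independent. Two-strand peaks come in pairs by definition, so the intervals on their shares are too narrow. PCR copies of a read are not separate molecules either.

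The gap between the libraries depended on the filter. The lowest listed height differs, being 4 tags for replicate 1 but 5 for replicate 2, and the number of reads behind either list is unknown, so heights were not adjusted for depth. At 5 tags or more in both lists, 725 of 8113 intergenic peaks of replicate 1 were two-strand peaks, or 8.94% (8.33% to 9.58%), and the value of replicate 2 lay within that interval. At a p value under 0.001 replicate 2 again had the higher share, 27.9% against 20.1%.

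Every two-strand peak needs a partner on the other strand, and here every partner was intergenic as well. Near-equal numbers on the 2 strands therefore follow from the definition. In replicate 1, 771 two-strand peaks lay on the plus strand and 773 on the minus strand, and in replicate 2 the numbers were 1584 and 1585. They formed 773 pairs in replicate 1 and 1586 in replicate 2, and both peaks of every pair were intergenic. The authors' annotation has a separate antisense class, which makes an intergenic peak unlikely to face a peak of a gene. The peaks of a pair covered exactly the same interval in 715 pairs (92.5%) of replicate 1 and 1425 pairs (89.8%) of replicate 2. All pairs overlapped by at least 50 nt, which is the width of the bins on which the peaks start. Just outside the definition were 179 and 332 intergenic peaks that only touched an opposite-strand peak, with a median height of 4 and 5 tags and at most 16 and 18 tags.

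Two-strand peaks were mostly taller than one-strand peaks, although the highest intergenic peak of each list, with 91 and 161 tags, was a one-strand peak. They had a median of 5 tags (4 to 84) in replicate 1 and of 7 tags (5 to 115) in replicate 2, against 4 and 5 tags for one-strand peaks, which is the lowest height of each list. There were 254 two-strand peaks with 10 tags or more (16.5%, 14.7% to 18.4%) for replicate 1 and 892 (28.1%, 26.6% to 29.7%) for replicate 2. Of the one-strand peaks 135 (0.330%) and 492 (1.43%) reached it. At the lowest height of the list stood 35.8% and 22.2% of the two-strand peaks and 82.4% and 74.0% of the one-strand peaks.

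Seen from the height, the share of intergenic peaks with a partner rose steeply and then levelled off. In replicate 1 it was 1.63% at 4 tags, 4.66% at 5 tags, 18.1% from 6 to under 8 tags and 51.2% from 8 to under 10 tags. In replicate 2 it was 2.81% at 5 tags, 11.95% from 6 to under 8 tags and 39.98% from 8 to under 10 tags. From 10 tags up it lay between 63.7% and 73.9% in replicate 1 and between 63.8% and 74.0% in replicate 2. Even at 40 tags or more, 6 intergenic peaks of replicate 1 and 13 of replicate 2 had no partner, beside 17 and 37 that had one. A partner must itself reach the lowest listed height, which a faint opposite strand would miss.

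**Figure D1:**
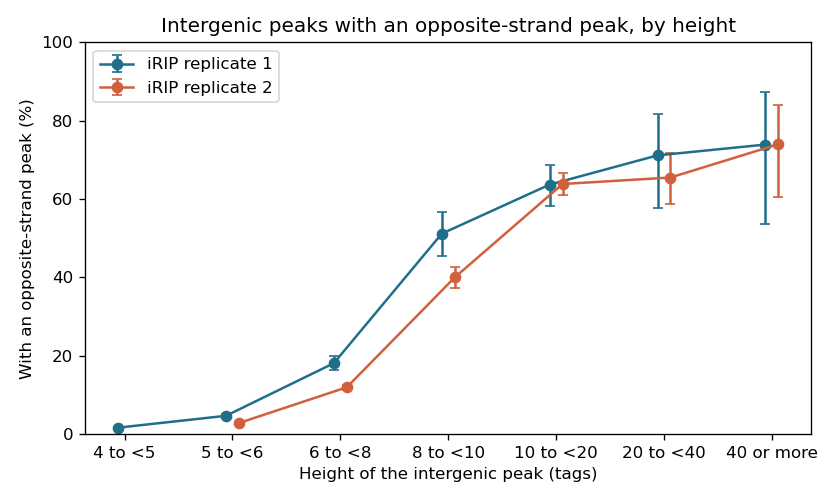
Share of intergenic peaks with an opposite-strand peak (%) in classes of height (tags), for each iRIP replicate, with 95% Wilson intervals as bars. The share climbs from 1.63% at 4 tags in replicate 1 and 2.81% at 5 tags in replicate 2 to over 60% in all classes from 10 tags up.

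Within a pair the strands had similar heights. The higher peak stood at a median of 1.25 times the lower one in both replicates, with an interquartile range of 1.00 to 1.50 in replicate 1 and 1.13 to 1.50 in replicate 2. Heights were equal in 201 pairs (26.0%) and 269 pairs (17.0%), and the higher peak had at least 2 times the tags of the lower one in 70 pairs (9.06%) and 127 pairs (8.01%). Both peaks stood at the lowest listed height, where they cannot differ downward, in 150 pairs (19.4%) of replicate 1 and 139 pairs (8.76%) of replicate 2. At least 1 strand reached 10 tags in 176 and 604 pairs, and both strands did in 79 and 289. Where both did, the median ratio was 1.29 and 1.25. A minimum on both strands leaves out the more unequal of these pairs, so this ratio says little about similarity.

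Over the genome the minus strand was slightly ahead in both libraries, and whether this exceeds an even split was not tested. The plus strand was higher in 270 pairs and the minus strand in 302 pairs of replicate 1, and in replicate 2 the numbers were 599 and 718. Summed over the pairs, the plus strand had 5676 tags and the minus strand 5773 in replicate 1, and 14590 and 15254 in replicate 2. Across pairs the log2 heights of the strands had a Pearson correlation of 0.72 over 773 pairs and 0.70 over 1586 pairs (Spearman 0.55 in both). This is a description across pairs of a single library, which share its depth and its lowest height.

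**Figure D2:**
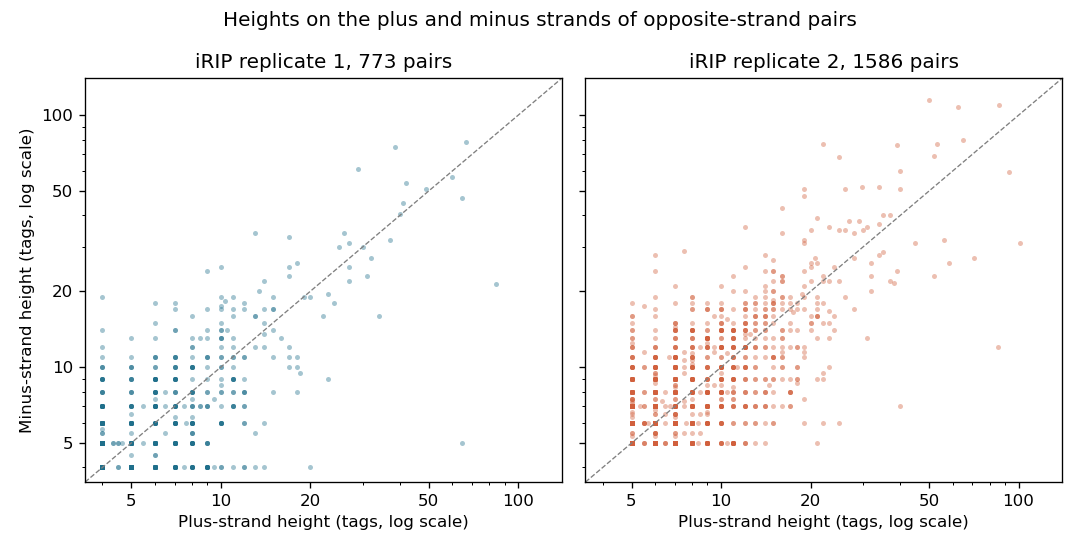
Height on the minus strand against height on the plus strand (tags, both axes logarithmic) for each pair of overlapping opposite-strand intergenic peaks, 773 pairs in replicate 1 and 1586 in replicate 2, with the line of equal heights dashed. Most pairs lie near the line and a few, up to a ratio of 12.95 in replicate 1 and 7.08 in replicate 2, lie far from it.

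Two-strand peaks were spread over all 24 chromosomes, unevenly. Chromosome 10 held most of them over both lists, 150 in replicate 1 and 318 in replicate 2, and chromosome 1 was first in replicate 1 with 164. The 5 leading chromosomes held 41.6% of the two-strand peaks of replicate 1 and 39.3% of replicate 2. Relative to all listed intergenic peaks of each chromosome, the share was highest on chromosome Y in both libraries (16.7% and 30.0%), followed by chromosome 19 (11.5% and 17.7%) and chromosome 17 (7.75% and 15.1%). It was lowest on chromosome 7 in replicate 1 (0.944%) and on chromosome 3 in replicate 2 (1.79%).

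The step from replicate 1 to replicate 2 also differed by chromosome. The share was 1.97% and 10.1% on chromosome 11, a ratio of 5.10, and 4.40% and 4.50% on chromosome 14, a ratio of 1.02. At 5 tags or more in both lists, the order between the libraries turned on several chromosomes. Chromosome 1 then had 13.4% (11.1% to 16.1%) in replicate 1 and 7.64% (6.76% to 8.64%) in replicate 2, chromosome 14 had 11.8% (8.30% to 16.5%) and 4.50% (3.41% to 5.92%), and chromosome 19 had 28.9% (23.6% to 34.9%) and 17.7% (15.4% to 20.2%). At that minimum chromosome Y had 22.1% (16.1% to 29.5%) in replicate 1, below chromosome 19 with overlapping intervals, and remained first in replicate 2. Chromosome 11 kept the higher value in replicate 2, with 6.25% (4.24% to 9.13%) against 10.1% (8.79% to 11.5%). With unknown depths, a minimum of 5 tags may be stricter for either library.

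**Figure D3:**
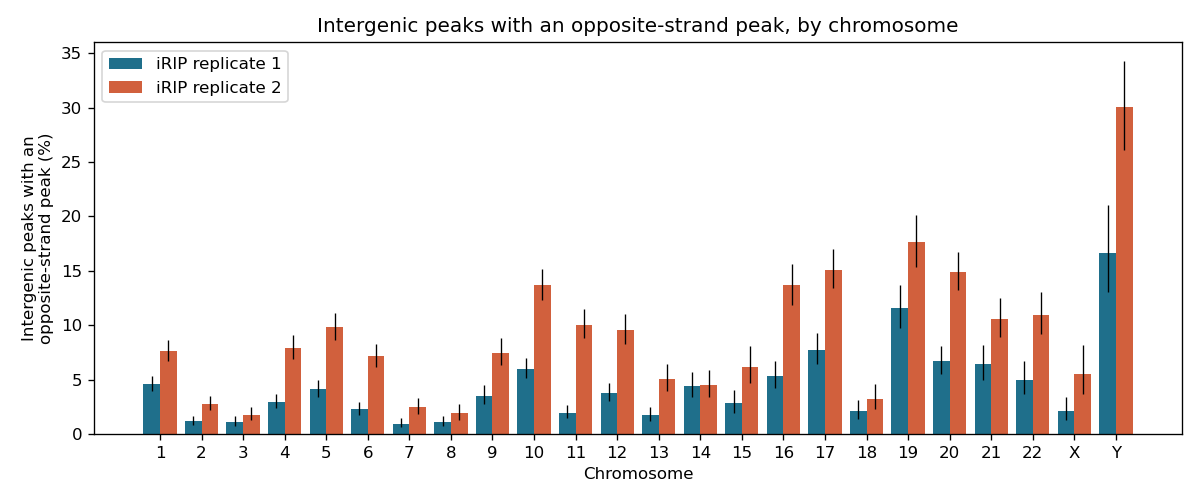
Share of the intergenic peaks of each chromosome that have an opposite-strand peak (%), for each iRIP replicate, with 95% Wilson intervals as lines. With all listed heights, chromosome Y stands highest in both replicates (16.7% and 30.0%), and chromosomes 2, 3, 7 and 8 are low in both.

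Two-strand peaks lay far from annotated genes. The median distance to the nearest RefSeq gene was 484 kb in replicate 1 and 651 kb in replicate 2, against 13.0 and 13.9 kb for one-strand peaks. More than 100 kb from any gene were 69.5% (67.2% to 71.7%) and 77.2% (75.7% to 78.6%) of the two-strand peaks and 12.0% and 16.3% of the one-strand peaks. More than 1 Mb away were 29.4% and 32.4%, against 2.31% and 4.44%. Only 44 two-strand peaks (2.85%) of replicate 1 and 48 (1.51%) of replicate 2 overlapped a RefSeq gene, against 14.2% and 13.6% of one-strand peaks. The immunoglobulin kappa locus, IGK, was the gene entry that held most of them, 8 in replicate 1 (at most 17 tags) and 20 in replicate 2 (at most 68 tags).

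A small part of the genome held most of them. On 21 chromosomes, the longest stretch without a RefSeq gene contained 977 two-strand peaks (63.3%, 60.8% to 65.6%) of replicate 1 and 2362 (74.5%, 73.0% to 76.0%) of replicate 2. The same stretches held 5.68% and 10.5% of the one-strand peaks. The stretch between CHEK2P5 and KSR1P1 on chromosome 10 had 126 and 296 two-strand peaks, that between EMBP1 and LOC101929814 on chromosome 1 had 134 and 230, and that between WEE1P2 and LOC100422478 on chromosome 17 had 94 and 206. Inside these 3 stretches 28.9%, 41.0% and 34.9% of the intergenic peaks of replicate 1 were two-strand peaks, and 40.6%, 43.7% and 37.6% of those of replicate 2.

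Of the 1544 and 3169 two-strand peaks, 0 met any of 35116 RefSeq promoter windows around the starts of genes. Of the 40900 and 34330 one-strand peaks, 162 and 155 did. Such windows lie at genes, and 69.5% and 77.2% of the two-strand peaks lay more than 100 kb from any gene. No two-strand peak met any of 1562 miRNA hairpins, and neither did any one-strand peak. Few peaks of either kind lay near genes of small noncoding RNAs. Within 10 kb of a U small nuclear RNA gene lay 0.259% and 0.0631% of the two-strand peaks, against 1.22% and 1.04% of the one-strand peaks. Within 10 kb of a transfer RNA gene lay 2 two-strand peaks (0.130%) of replicate 1 and 0 of replicate 2. The one-strand shares there were 0.381% and 0.350%. Within that distance of a 7SL, 7SK or Y RNA gene lay none in either list, and neither list had a peak on the mitochondrial genome. Ribosomal RNA genes, pseudogenes included, were within 10 kb of 17 two-strand peaks (1.10%) in replicate 1 and 16 (0.505%) in replicate 2, against 0.357% and 0.486% of one-strand peaks. A single cluster on chromosome 21 held 9 and 8 of these two-strand peaks. Within 50 kb the order turned, with 1.49% of two-strand and 1.61% of one-strand peaks in replicate 1. In replicate 2 the shares within 50 kb were 0.884% and 1.84%.

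Many two-strand peaks lay close together. With peaks joined while the gap was at most 10 kb, they formed 566 clusters in replicate 1 and 912 in replicate 2. A single pair standing alone was the most frequent form, in 459 and 623 clusters, which held 59.5% and 39.3% of the two-strand peaks. Clusters of at least 5 two-strand peaks numbered 41 on 16 chromosomes in replicate 1 and 117 on 21 chromosomes in replicate 2, and held 362 (23.4%, 21.4% to 25.6%) and 1236 (39.0%, 37.3% to 40.7%) of them. Their median span was 10.8 and 9.95 kb, and the longest spanned 40.4 and 86.5 kb. Peaks in such clusters were taller. Of them 35.4% and 35.8% had 10 tags or more, against 8.93% and 19.7% of the peaks in lone pairs.

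The largest clusters of replicate 1 were chr4:49112950-49150000 with 24 two-strand peaks, chr1:143186850-143227200 and chr10:41862600-41895850 with 22 each, chr1:143256650-143275400 with 20 and chrY:56693700-56731200 with 14. Those of replicate 2 were chr1:143188100-143274550 with 74, chr10:41847250-41913050 with 70, chrY:11533250-11578700 with 43 and chr6:58555450-58579750 with 34. Next came chr10:42068200-42099050 and chr4:49115950-49151350 with 32 two-strand peaks each. Thus the first 3 places of replicate 1 recurred among the clusters of replicate 2. Of the 41 clusters of at least 5 in replicate 1, 23 met such a cluster of replicate 2, and of the 117 in replicate 2, 21 met one of replicate 1, on 13 chromosomes in all. One-strand peaks lay in the same spans. The largest clusters of replicate 1 spanned 29, 26, 33, 14 and 11 of them, in the order given above. Those of replicate 2 spanned 75, 86, 42, 15, 30 and 37.

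The clusters shared few of their peaks. In 13 of the 24 meetings of a cluster of replicate 1 with one of replicate 2, no two-strand peak was overlapped on the same strand by one of the other cluster, and in 11 at least 1 was. Around chr1:143188100-143274550 the clusters of replicate 1 had 22 and 20 two-strand peaks and that of replicate 2 had 74, and 0 of them were overlapped on the same strand by a two-strand peak of the other list. On chr4:49112950-49150000, 4 of the 24 were overlapped by a two-strand peak of replicate 2. On chrY:56693700-56731200, 0 of the 14 were overlapped in that way, although the clusters there reached 75 tags in replicate 1 and 110 in replicate 2. The share was larger at chr19:26906650-26907850, with 4 of 6, and at chr21:8255750-8257900, with 4 of 9.

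The cluster on chromosome 10 shows the arrangement in detail. Between 41844450 and 41913750, a span of 69.3 kb, replicate 1 had 36 two-strand peaks (median 7 tags) and 73 one-strand peaks, and replicate 2 had 70 (median 9.5 tags) and 92. On the same strand, 12 of the 36 and 11 of the 70 were overlapped by any peak of the other list. At chr10:41863700-41863750 the plus strand had 25 tags in replicate 1 and 39 in replicate 2, and the minus strand 30 and 76. This pair was the highest of both lists in the cluster, with the minus strand above the plus strand each time. The tallest peak of all there was a one-strand peak of replicate 2, with 92.3 tags.

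**Figure D4:**
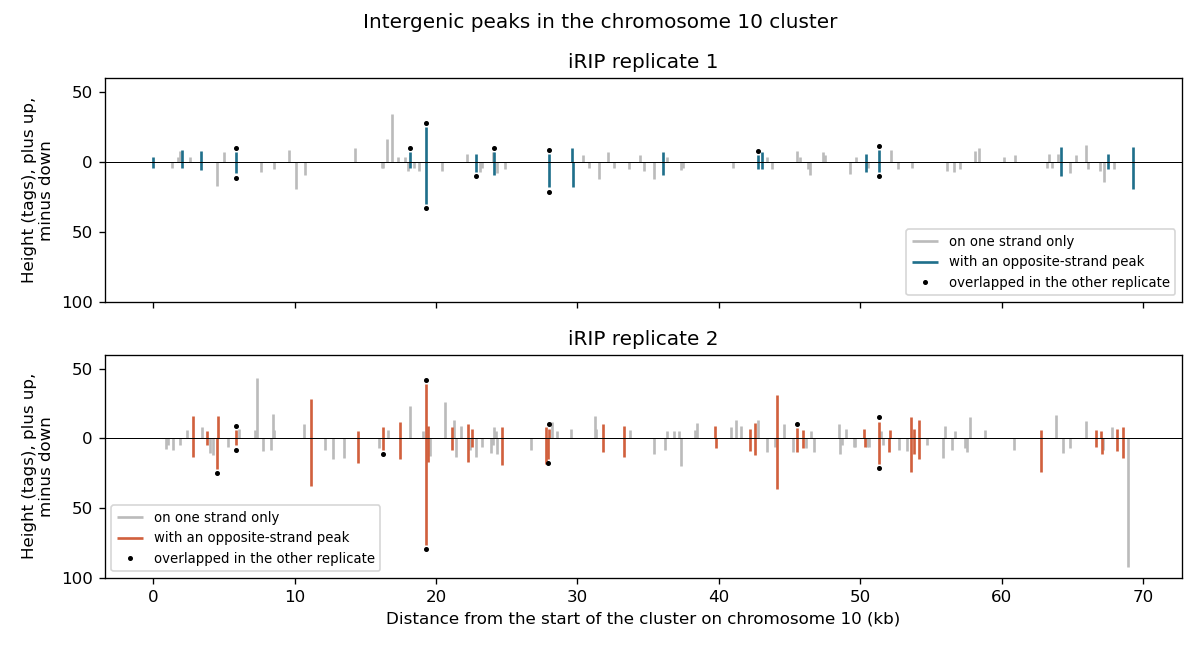
Heights of intergenic peaks (tags) along 69.3 kb of chromosome 10 by distance from the start of the cluster (kb), plus strand upward and minus strand downward, in each iRIP replicate. Coloured lines are peaks with an opposite-strand peak (36 in replicate 1 and 70 in replicate 2), grey lines peaks on one strand only, and dots mark those coloured peaks that a peak of the other replicate overlapped on the same strand.

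The peaks with the most tags were mostly seen in a single library. In replicate 1 the highest was chr21:8256550-8256700 on the plus strand with 84 tags (21.3 on the minus strand), followed by chr1:143200600-143200650 with 78 tags on the minus and 67 on the plus strand. Next were chrY:56731100-56731200 with 75 tags on the minus strand (38.5 on the plus strand) and chr21:8257700-8257900 with 64.75 on the plus strand. Of these, the 2 on chromosome 21 met a same-strand peak of replicate 2, with 58.3 and 71 tags, and the others were not.

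In replicate 2 the highest was chr20:31073650-31073700 with 115 tags on the minus strand and 50 on the plus strand. Next were chrY:56692350-56692450 with 110 on the minus and 86 on the plus strand and chr7:62453850-62453900 with 108 and 62.7. After them came chr21:8260000-8260050 with 101 on the plus and 31 on the minus strand, and chr4:49151250-49151350 with 93 and 59.5. None of these 5 was overlapped in replicate 1 on the same strand.

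The chromosome 21 peaks lay at a row of ribosomal RNA pseudogenes, RNA18SP5, RNA5-8SP10 and LOC110467529. In the gap between RNA18SP5 and RNA5-8SP10, chr21:8256550-8256700 had 84 tags in replicate 1 and 58.3 in replicate 2 on the plus strand, and 21.3 and 26 on the minus strand. In the gap between RNA5-8SP10 and LOC110467529, the plus-strand peak of 64.75 tags in replicate 1 met one of 71 tags in replicate 2, and the minus-strand peak at chr21:8257850-8257900 had 47 and 27 tags. At these places the plus strand was the higher one in both libraries. At chr21:8260000-8260050, within LOC110467529, the pair of 101 and 31 tags was in replicate 2 only. One-strand peaks stood among them, with 34 and 33 tags on the minus strand at chr21:8257450-8257500. Whether these peaks come from these copies or from other copies of ribosomal RNA genes was not tested.

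Two-strand peaks overlapped the other replicate more often than one-strand peaks did. On the same strand, 253 of the 1544 in replicate 1 (16.4%, 14.6% to 18.3%) were overlapped by a peak of replicate 2, where 9.19% of all peaks of replicate 1 were. In replicate 2, 319 of 3169 (10.1%, 9.07% to 11.2%) were overlapped by a peak of replicate 1, where 9.62% of all peaks of replicate 2 were. Beside that background the share of replicate 2 was near that of all peaks. Of the one-strand peaks 1.45% and 1.52% were overlapped, and of the CDS peaks 45.8% and 35.0%.

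The difference between two-strand and one-strand peaks was 14.9 percentage points in replicate 1 (two-sided Fisher's exact test, adjusted p = 5.65e-159) and 8.54 in replicate 2 (adjusted p = 9.34e-127, the same exact test). The p-values were adjusted over the 2 libraries by the Benjamini-Hochberg method. They compare peaks of the lists, not conditions, and are too small, because the peaks of a pair or cluster are not independent. Both tests rest on the same pair of libraries. With each cluster counted once, 26.7% and 20.9% of the two-strand clusters and 1.44% and 1.50% of the one-strand clusters had an overlapped peak. A cluster counted when any of its peaks was overlapped, which favours larger clusters. No two-strand cluster held a single peak, with 1544 and 3169 peaks in 566 and 912 clusters. The 40900 and 34330 one-strand peaks formed 27572 and 23009 clusters, so this count does not compare like with like.

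The difference was not uniform over heights. Among low peaks the two-strand peaks were ahead. At 4 tags in replicate 1, 10.7% (8.40% to 13.5%) of them were overlapped against 0.841% of one-strand peaks, at 5 tags 20.97% (16.5% to 26.3%) against 2.77%, and in replicate 2 at 5 tags 5.69% (4.24% to 7.60%) against 0.726%. With both lists held to at least 10 tags, the difference was -2.46 points in replicate 1 and 0.926 in replicate 2 and did not pass the test (two-sided Fisher's exact test, adjusted p = 0.539 for both). When only the list compared was held to 10 tags and the other list was left whole, a setting chosen after seeing the data, two-strand peaks were overlapped less often. There 40 of 254 two-strand peaks (15.7%) and 34 of 135 one-strand peaks (25.2%) of replicate 1 were overlapped, a difference of -9.44 points (two-sided Fisher's exact test, adjusted p = 0.0297). In replicate 2 it was 111 of 892 (12.4%) and 85 of 492 (17.3%), a difference of -4.83 points (adjusted p = 0.0297, the same exact test). These p-values are too small as well, because the peaks of a pair or cluster are not independent. No count by cluster was made at this height, so the lower shares are only a description. By class, the two-strand peaks were behind in both replicates from 10 to under 20 tags (14.5% against 26.3% and 12.3% against 17.1%). From 20 to under 40 tags 7 of 37 two-strand and 3 of 15 one-strand peaks were overlapped in replicate 1, and 17 of 131 and 14 of 69 in replicate 2. At 40 tags or more the shares were 23.5% against 16.7% and 13.5% against 7.69%, with wide intervals on few peaks. CDS peaks of at least 10 tags were overlapped in 73.8% and 66.1% of cases.

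**Figure D5:**
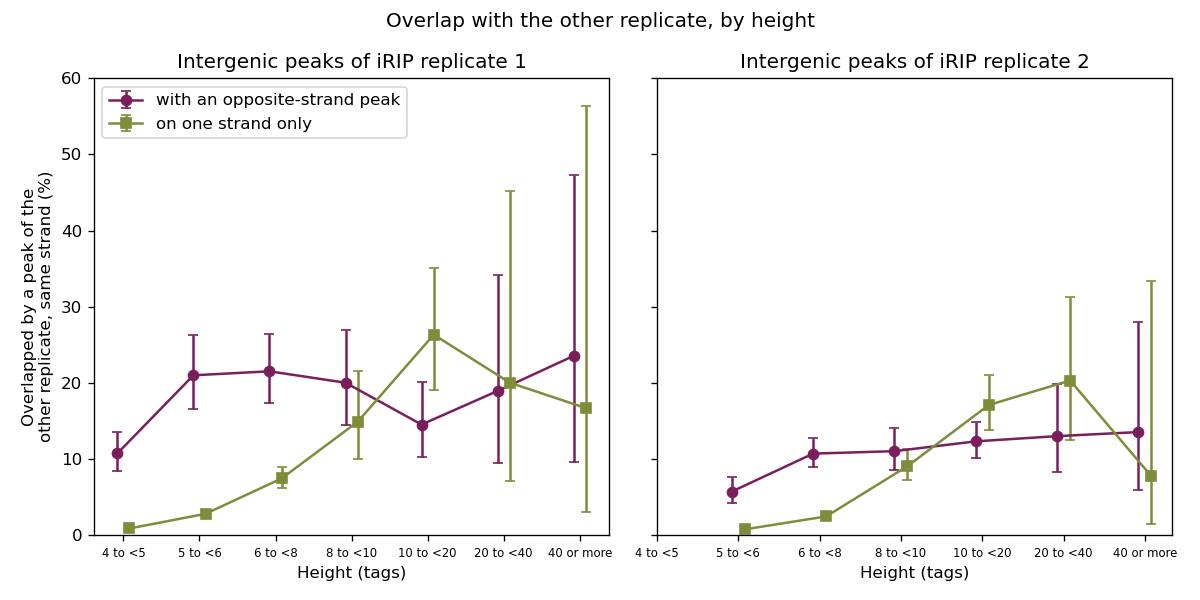
Share of intergenic peaks that a peak of the other replicate overlapped on the same strand (%) in classes of height (tags), for peaks with an opposite-strand peak and peaks on one strand only, with 95% Wilson intervals as bars. Below 8 tags the peaks with a partner lie higher in both replicates, and from 10 to under 20 tags they lie lower, at 14.5% against 26.3% and 12.3% against 17.1%. At 40 tags or more they lie higher again in both (23.5% against 16.7% and 13.5% against 7.69%), with wide intervals that overlap.

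The difference was present both away from and within the longest gene-free stretches. Outside the longest gene-free stretch of each chromosome, 11.3% and 11.0% of the two-strand peaks were overlapped, against 0.845% and 0.966% of the one-strand peaks. Inside these stretches the values were 19.3% and 9.74% against 11.5% and 6.29%. The gap was 10.4 and 10.1 percentage points outside and 7.81 and 3.45 inside, and whether it differed between inside and outside was not tested.

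Two-strand peaks of the 2 lists often lay close to each other. A two-strand peak of the other replicate lay within 10 kb, on either strand, of 48.5% of the two-strand peaks of replicate 1 and 37.6% of those of replicate 2, and within 100 kb of 79.0% and 77.6%. These shares are over all two-strand peaks. They include the 8.87% and 4.32% that a two-strand peak of the other replicate overlapped on the same strand. One-strand peaks were also set against the two-strand peaks of the other replicate, and not against its one-strand peaks. Their shares were 4.75% and 5.49% within 10 kb and 9.20% and 13.8% within 100 kb. The median distance to a two-strand peak of the other replicate was 11.1 and 23.4 kb for two-strand peaks. For one-strand peaks it was 9012 and 4083 kb. Distances between one-strand peaks of the 2 lists are not given here. Two-strand peaks of both lists thus lay in the same neighbourhoods, mostly at different positions.

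Whole pairs seldom recurred. Both strands of a pair were overlapped by the other replicate in 69 of 773 pairs of replicate 1 and 70 of 1586 of replicate 2, only one strand in 116 and 180 pairs, and neither in 588 and 1336. In 67 places, on 18 chromosomes, a pair of replicate 1 met a pair of replicate 2 on both strands, which is 8.67% of the pairs of replicate 1 and 4.22% of those of replicate 2. The same strand was higher in both libraries in 28 of these, the other strand in 19, and in 20 the strands were tied in a library.

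Single peaks that were two-strand peaks in both lists, on the same strand, came to 137 overlaps on 18 chromosomes, which is 8.87% of the two-strand peaks of replicate 1 and 4.32% of those of replicate 2. Their median height was 6 tags in replicate 1 and 10 in replicate 2, and 100 of the 137 were higher in replicate 2. The log2 heights of the replicates had a Pearson correlation of 0.63 over the 137 overlaps (Spearman 0.38), as a description, since many share a locus. At least 10 tags in both lists were reached by 23.

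After the 2 plus-strand peaks of chromosome 21, ranked by the lower of their heights, came chr16:34597700-34597750 on the plus strand with 34 tags in replicate 1 and 32 in replicate 2. At chr10:41119200-41119250 both strands had 30 tags in replicate 1, with 34 on the plus and 37 on the minus strand in replicate 2. On the minus strand of chr17:21975350-21975400 there were 17 and 39 tags. These 10 leading peaks, with the chromosome 10 pair and the 2 minus-strand peaks of chromosome 21 already described, came from 4 chromosomes.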

How the data were processed

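iRIP-seq of IGF2BP2 in Jurkat cells was represented by 2 per-library peak lists. According to the methods, the authors aligned 150 bp read pairs with TopHat 2, kept uniquely mapped reads, called peaks in each library by ABLIRC with 500 simulations per gene at a p value under 0.05, and removed peaks overlapping input peaks. Versions are not given in the sources used here, and neither is whether the library kit kept the strand. The deposited height is a signal in tags per 50 nt bin, unadjusted for depth. The deposited p-value was used only as a filter. The deposited length, strand and region shares are the authors' own.

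Positions were read as half-open intervals. Shares have 95% Wilson intervals, and overlap with the other replicate was compared by Fisher's exact test. Clusters joined peaks up to 10 kb apart. Regions named were the 5 highest peaks and 5 largest clusters per library, the 10 recurrent peaks with the highest lower height, and shared clusters, with their nearest genes. Other places were named after their values were seen. Members, gene lists and the rule were chosen with earlier results of these data known. Alternatives were minimum heights of 5 and 10 tags, a p value under 0.001, other overlap rules, cluster distances and sizes, position, and each replicate left out. The overlap, pair and cluster functions were tested on simulated data. Python 3.11.15, numpy 2.4.6, pandas 2.3.3, scipy 1.17.1 and matplotlib 3.10.9 were used. Because the read depth is unknown, no detection limit was computed. Input libraries were not analysed here.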

Additional observations from a re-analysis of the deposited data

How the results depend on the processing

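Of the results, the share of intergenic peaks that were two-strand peaks moved most with height, from 6.04% to 41.2% at 10 tags or more and 24.0% at a p value under 0.001. The overlap with the other replicate was 13.2%, with 7.77% when both lists held only peaks of at least 10 tags and 19.8% on either strand. The share in clusters of at least 5 was 31.2%, with 19.4% at 10 tags or more, 4.64% with a joining distance of 1 kb, 75.1% with 100 kb and 16.3% for clusters of at least 10. The median ratio of heights was 1.25, with 1.26 at 5 tags, 1.27 at 10 tags and 1.29 at p under 0.001. The share of peaks of at least 10 tags was 22.3%, with 53.7% at p under 0.001. Chromosome 10 held 9.87%, with 11.1% at 5 tags, 10.7% at 10 tags, 12.2% at p under 0.001 and 9.63% when touching peaks counted. With both lists at 10 tags or more, the difference in overlap between two-strand and one-strand peaks was -2.46 points in replicate 1 and 0.926 in replicate 2 (Fisher's exact test, adjusted p = 0.539 for both). With the other list whole, a choice made after seeing the data, it was -9.44 and -4.83. The causes were not tested.

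With each replicate left out, the share of two-strand peaks ranged from 3.64% to 8.45%, that in clusters from 23.4% to 39.0%, that of at least 10 tags from 16.5% to 28.1% and that on chromosome 10 from 9.72% to 10.0%, and the ratio of heights was 1.25. Overlap between replicates needs both libraries and has no such value. No paired analysis was possible because the inputs that share replicate numbers with the iRIP libraries have no values here and no result comes from a fit between groups.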
